A study of Mus musculus with 76 samples.

Results

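The genes described here are Slc2a3, St7, Zbtb46, Spag9 and Lrp6, 5 of the 49585 genes counted in 76 mouse fetal liver libraries. They were picked because their knockout (KO) minus wild-type (WT) effect looked near 0 in the less mature sorted fractions S0, S1 and S2 and high in the more mature fractions S3 or S4+S5. Effects in the sorted fractions are therefore given as a description with no test. Tests are confined to total liver, whose libraries did not enter the choice. Total liver also holds cells of the sorted fractions, so a KO effect there is not independent of the choice. All 5 genes were counted in every library, with at least 38 counts in each, and passed the filter on low counts in all comparisons.

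The series asked which RNAs depend on DIS3 or EXOSC10 while red cells mature. Livers came from C57BL/6NJ embryos at embryonic day 14.5, WT or KO for DIS3 in the DIS3 line and WT or KO for EXOSC10 in the EXOSC10 line. In each line, total liver and the fractions S0, S1, S2, S3 and S4+S5, sorted on CD71 and Ter119, were sequenced as ribosomal RNA-depleted total RNA. How the KO alleles were made, in which cells they were deleted, and whether replicates were separate embryos are not given in the sources used here, so p-values measure the spread between these samples, which may be technical. The labels name no treatment. Replicates whose counts differed by little more than sampling noise may be one library sequenced or deposited again and were counted as 1 sample, which left 52 samples, 2 in each sorted group.

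DIS3 and EXOSC10 are ribonucleases of the RNA exosome, which trims and degrades many nuclear RNAs. Fetal liver is the main site of red cell formation in the mid-gestation embryo, and the sorted fractions are numbered in the order in which erythroid precursors mature there. The genes have unrelated roles. Slc2a3 encodes the glucose transporter GLUT3, and Lrp6 encodes a co-receptor through which Wnt ligands stabilise beta-catenin. Spag9 encodes JIP4, a scaffold of the JNK kinase pathway that also links organelles to motor proteins. Zbtb46 encodes a BTB zinc finger transcription factor known as a marker of classical dendritic cells, and St7 encodes a membrane protein described as a candidate tumour suppressor.

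In GENCODE release M21 on GRCm38, 3 of the 5 genes lie on chromosome 6: St7 (ENSMUSG00000029534) at 17692933 to 17943025 on the plus strand, Slc2a3 (ENSMUSG00000003153) at 122727809 to 122801640 on the minus strand and Lrp6 (ENSMUSG00000030201) at 134446476 to 134566965 on the minus strand. Zbtb46 (ENSMUSG00000027583) lies on chromosome 2 at 181387762 to 181459426 on the minus strand, and Spag9 (ENSMUSG00000020859) on chromosome 11 at 93996091 to 94126085 on the plus strand. All 5 are protein-coding genes. Their merged exons cover 7245 bases in Slc2a3, 9042 in St7, 8508 in Zbtb46, 11209 in Spag9 and 13672 in Lrp6. Genes with exons at least as long as those of Slc2a3 made up 23.7% of the protein-coding genes tested in S3 of the DIS3 line, and their median log2 KO over WT there was -0.07. All 5 genes are longer than the median coding gene tested there, whose exons cover 4603 bases.

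RefSeq start sites on GRCm38.p6 were found for 3 of the 5 genes, with 3 starts for St7, 2 for Spag9 and 1 for Zbtb46. The window of 250 bases before to 50 bases after one start of each is shown because these genes stood higher in KO in the same fractions. Capitals mark, on either strand, words bound by GATA factors of red cells and by KLF factors. GATA words searched were AGATAA with its variant ending in G, written AGATAG, and the same pair starting with T, of which the first is TGATAA and the other is written TGATAG. The KLF word was CCNCNCCC, a form of the CACCC box. The windows are chr6:17693744-17694043 on the plus strand for the first St7 start, chr2:181424339-181424638 on the minus strand for Zbtb46 and chr11:93995841-93996140 on the plus strand for the first Spag9 start.
St7: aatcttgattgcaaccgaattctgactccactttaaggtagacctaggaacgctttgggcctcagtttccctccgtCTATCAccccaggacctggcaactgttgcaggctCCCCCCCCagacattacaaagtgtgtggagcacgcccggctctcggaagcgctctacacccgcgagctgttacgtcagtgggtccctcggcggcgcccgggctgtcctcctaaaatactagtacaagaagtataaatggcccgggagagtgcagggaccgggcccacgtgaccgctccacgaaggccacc
Zbtb46: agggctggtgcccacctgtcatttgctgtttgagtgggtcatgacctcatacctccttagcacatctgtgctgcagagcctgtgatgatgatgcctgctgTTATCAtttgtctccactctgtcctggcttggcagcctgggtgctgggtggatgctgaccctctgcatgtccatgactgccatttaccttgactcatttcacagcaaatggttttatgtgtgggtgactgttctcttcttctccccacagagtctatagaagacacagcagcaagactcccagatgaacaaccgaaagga
Spag9: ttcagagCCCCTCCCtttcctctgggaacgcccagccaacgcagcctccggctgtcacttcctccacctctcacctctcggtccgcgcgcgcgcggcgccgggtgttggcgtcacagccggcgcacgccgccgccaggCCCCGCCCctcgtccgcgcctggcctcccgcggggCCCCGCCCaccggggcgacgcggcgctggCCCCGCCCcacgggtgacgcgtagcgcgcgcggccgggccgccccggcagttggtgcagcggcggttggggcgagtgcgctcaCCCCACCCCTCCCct
The first St7 window begins at 17693744, inside the GENCODE gene, which begins at 17692933. It held 1 GATA word and 1 CCNCNCCC word, and the windows of the other St7 starts, further inside the gene, held 2 and 1 GATA words. The Zbtb46 window, which lies inside the GENCODE gene rather than at its 5′ end, held 1 GATA word and no CCNCNCCC word. The first Spag9 window, with a GC content of 78.7%, held 6 CCNCNCCC words, of which those near its end overlap, and no GATA word. A GATA word was present in 29.8% of all 32851 RefSeq start windows of this length, CCNCNCCC in 49.5% and the E-box word CANNTG, which is not in capitals here and can overlap the other words, in 72.3%. St7 had 2 E-box words in its first window, Zbtb46 had 6 and Spag9 had 1. These matches are a description of the letters only.

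Library totals ran from 4.66 M to 30.41 M with a median of 12.71 M counts, and the predicted genes Gm26917 and Gm42418 took 5.264% to 61.418% of them. The targeted genes were checked first: Exosc10 fell in all 6 populations of its line, with log2 values between -0.44 and -1.90, and Dis3 fell in S0, S1, S2 and S3, with values between -0.31 and -0.95. In S4+S5 Dis3 had a log2 of -0.68 with an adjusted p of 0.134. Dis3 in total liver had a log2 of -0.25 with an adjusted p of 0.245, and KO samples at 31.7 and 32.4 CPM lay inside the WT range of 29.8 to 49.9. Levels are CPM (counts per M of scaled library size), and calls are adjusted p-values under 0.05 in edgeR's quasi-likelihood test. Late erythroid markers (13 genes, among them the band 3 gene Slc4a1) had a summed level in S3 of 34330 to 39850 CPM in DIS3 WT, 33790 to 36090 in DIS3 KO, 31560 to 33610 in EXOSC10 WT and 30140 to 32310 in EXOSC10 KO.

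In WT cells none of the 5 genes was highest in S4+S5. On 1 scaling of all samples and per kilobase of exon, mean WT levels over the sorted fractions of both lines ranged from 7.10 to 9.91 for Slc2a3, 3.86 to 9.05 for Lrp6, 4.13 to 6.42 for Spag9, 0.560 to 8.92 for Zbtb46 and 0.876 to 3.54 for St7. As a ratio of highest to lowest mean, Slc2a3 and Spag9 had the narrowest ranges, and Lrp6, St7 and Zbtb46 were low in S4+S5. The lowest WT mean lay in S4+S5 in both lines for St7 and Lrp6.

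Zbtb46 had the widest range in WT. On the same all-sample scaling it stood in DIS3 WT at 4.94 and 4.59 CPM in S0, 49.3 and 62.4 in S1, 67.0 and 74.8 in S2, 58.4 and 61.6 in S3, and 8.79 and 8.97 in S4+S5. In EXOSC10 WT it stood at 7.27 and 11.7 CPM in S0, 61.8 and 63.3 in S1, 72.8 and 79.0 in S2, 63.3 and 76.2 in S3, and 10.45 and 10.27 in S4+S5. Zbtb46 was thus high in the 3 middle fractions and low at both ends, and its samples overlapped between S1 and S3 of both lines, between S2 and S3 of the EXOSC10 line and between S0 and S4+S5 of the EXOSC10 line. Other dendritic cell markers were near absent from S2 and S3: none of 9 passed the filter on low counts in either line, and Xcr1 was at 0 in all samples of those 4 comparisons. In DIS3 S0, where Zbtb46 was low, 8 of 9 were measured, with a sum of 158.5 to 174.7 CPM in WT, scaled within the comparison. In S4+S5 the sums of those measured were 6.96 to 8.76 CPM in DIS3 WT and 2.58 to 4.66 in KO. The EXOSC10 sums there were 9.11 to 10.4 in WT and 1.37 to 5.20 in KO.

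St7 in WT peaked in S2, at 24.2 and 28.5 CPM in the DIS3 line and 31.2 and 32.8 in the EXOSC10 line. It was lowest in S4+S5, at 8.28 and 7.56 CPM in the DIS3 line and 12.1 and 13.6 in the EXOSC10 line. In DIS3 WT the S1 and S2 samples overlapped, and S0 and S3 did too. Lrp6 in WT stood between 101.2 and 126.6 CPM in every S0, S1 and S2 sample of both lines, and these fractions overlapped in the EXOSC10 line. It stood at 82.1 to 93.7 CPM in S3 and 49.0 to 58.1 in S4+S5, below all of the earlier fractions. Slc2a3 in WT stayed between 48.0 and 75.3 CPM in all 20 sorted WT samples, and Spag9 between 46.2 and 75.0.

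**Figure D1:**
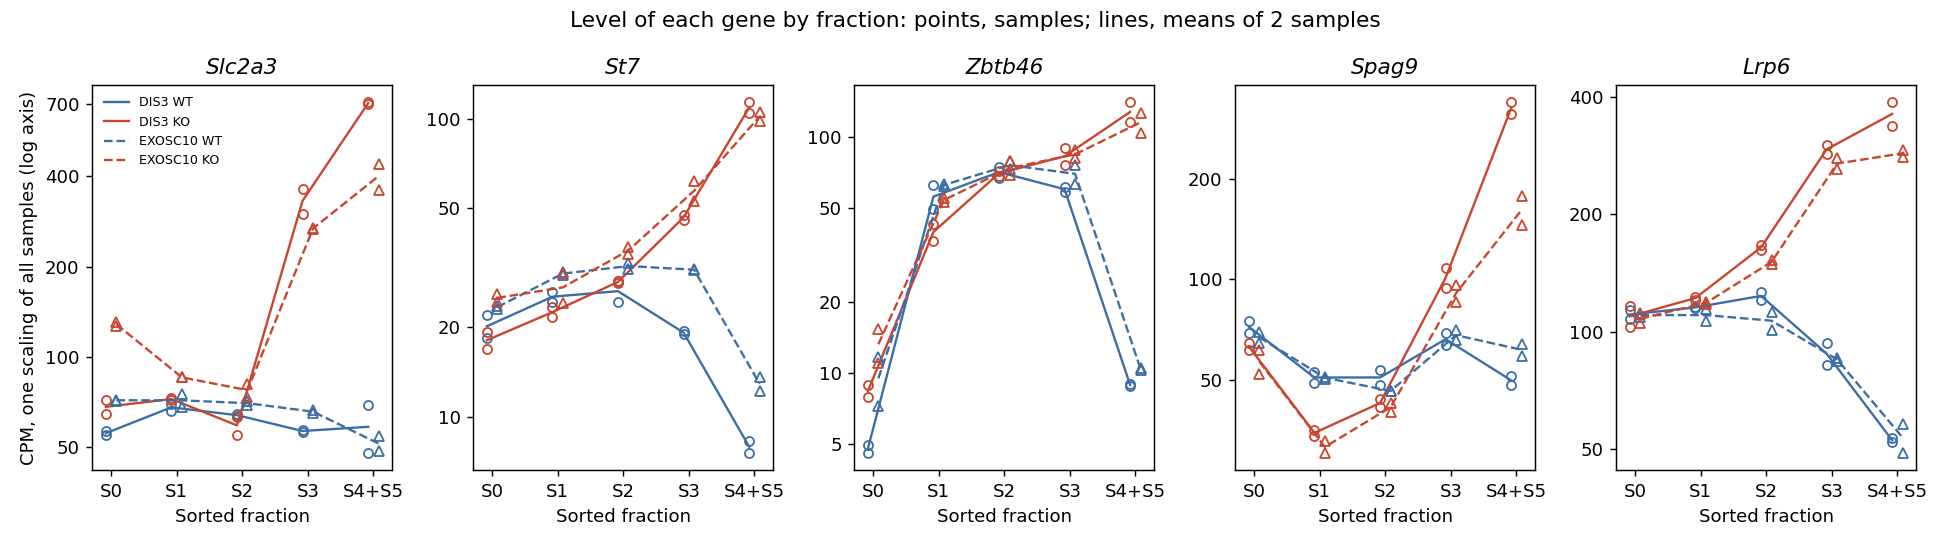
Level of each gene in the sorted fractions, in CPM on 1 scaling of all samples (log axis); circles are DIS3 samples, triangles EXOSC10 samples, blue WT, red KO, and lines join the means of 2 samples. Red and blue lines lie furthest apart in S4+S5. They also part earlier for Slc2a3 in EXOSC10 S0, Zbtb46 in DIS3 S0, Spag9 in S1 and Lrp6 in S2 of both lines. In S4+S5 WT St7, Zbtb46 and Lrp6 are at their lowest or near it.

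In KO cells all 5 genes stood higher in S3 and in S4+S5 in both lines, as they were picked to do. From here on, levels are CPM scaled within the comparison named, and log2 values are KO over WT with the standard error (SE) of the fit. Every KO sample was above every WT sample for 5 of 5 genes in these 4 comparisons. The same held for 32.9% of genes tested in DIS3 S3, 36.8% in DIS3 S4+S5, 33.7% in EXOSC10 S3 and 29.1% in EXOSC10 S4+S5, and since these contrasts chose the genes nothing is read from the counts. In bulk samples, a gene that rises within each cell and a change in which cells a fraction holds cannot be told apart, just as fewer cells of a type and less RNA per cell cannot.

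Slc2a3 had the highest log2 of the 5 genes in S3 of both lines. For Slc2a3, DIS3 S3 WT samples stood at 45.8 and 45.9 CPM and KO samples at 300.7 and 259.8, a log2 of 2.61 ± 0.09. EXOSC10 S3 WT samples stood at 51.8 and 50.1 CPM and KO samples at 217 and 219, a log2 of 2.103 ± 0.06. A higher log2 was found for 1.79% of genes in DIS3 S3 and 1.27% in EXOSC10 S3. Since these contrasts chose the gene, nothing is read from that rank.

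In S4+S5 the Slc2a3 levels of the DIS3 line were 34.0 and 49.2 CPM in WT and 529.7 and 550.8 in KO, a log2 of 3.71 ± 0.17. Those of the EXOSC10 line were 33.7 and 36.0 CPM in WT and 329.9 and 279.2 in KO, a log2 of 3.13 ± 0.12. On the all-sample scaling, mean KO Slc2a3 in S4+S5 was 10.3 times the highest WT fraction mean in the DIS3 line and 5.59 times in the EXOSC10 line.

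Lrp6 came next in S3 in both lines. For Lrp6, DIS3 S3 WT samples stood at 66.0 and 76.3 CPM and KO samples at 249.3 and 247.6, a log2 of 1.81 ± 0.09. EXOSC10 S3 WT samples stood at 66.8 and 64.8 CPM and KO samples at 212.1 and 227.2, a log2 of 1.74 ± 0.06. The KO samples of a line lay close to each other and far above WT.

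In S4+S5 Lrp6 stood at 37.9 and 37.1 CPM in DIS3 WT and 290.7 and 265.7 in DIS3 KO, a log2 of 2.89 ± 0.15. For EXOSC10 the samples stood at 34.0 and 38.4 CPM (WT) and 210.4 and 226.1 (KO), a log2 of 2.59 ± 0.11. From S2 to S4+S5 the level of Lrp6 went down in WT and up in KO: on the all-sample scaling its KO mean in S4+S5 was 2.93 times the highest WT fraction mean in the DIS3 line and 2.60 times in the EXOSC10 line.

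St7 had a smaller value in S3 and a large one in S4+S5. In S3 it stood at 15.2 and 15.7 CPM in DIS3 WT and 37.6 and 41.4 in DIS3 KO (log2 1.34 ± 0.10), and at 24.7 and 23.5 in EXOSC10 WT and 42.9 and 50.2 in EXOSC10 KO (log2 0.96 ± 0.09). In S4+S5 the DIS3 samples stood at 5.88 and 5.38 CPM (WT) and 85.1 and 82.5 (KO) (log2 3.89 ± 0.20), and the EXOSC10 samples at 8.43 and 8.99 in WT and 73.2 and 81.6 in KO (log2 3.15 ± 0.13). The highest WT fraction mean of St7 was exceeded 4.14 times in the DIS3 line and 3.18 times in the EXOSC10 line on the all-sample scaling.

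Zbtb46 differed mainly in S4+S5. In S3 it stood at 46.9 and 50.2 CPM in DIS3 WT and 73.8 and 65.9 in DIS3 KO (log2 0.53 ± 0.08), and at 50.4 and 57.5 in EXOSC10 WT and 65.7 and 71.5 in EXOSC10 KO (log2 0.34 ± 0.08). In S4+S5 it stood at 6.24 and 6.38 CPM in DIS3 WT and 104.9 and 90.8 in DIS3 KO, a log2 of 3.96 ± 0.19. The EXOSC10 samples were at 7.26 and 6.78 CPM (WT) and 94.3 and 80.7 (KO), a log2 of 3.64 ± 0.14.

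Zbtb46 thus had the highest S4+S5 log2 of the 5 genes in both lines and the lowest S3 log2 in both lines. On the all-sample scaling its KO mean went from 82.7 CPM in S3 to 127.6 in S4+S5 in the DIS3 line and from 84.3 to 115.3 in the EXOSC10 line, while WT went down. The KO means in S4+S5 were 1.80 and 1.52 times the highest WT fraction mean, which is that of S2, in the DIS3 and EXOSC10 lines. Of the 5 genes, these are the lowest such ratios.

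Spag9 had S4+S5 values further apart between the lines than any of the others. In S3 it stood at 51.0 and 56.0 CPM in DIS3 WT and 89.0 and 81.6 in DIS3 KO (log2 0.68 ± 0.08), and at 52.2 and 53.0 in EXOSC10 WT and 69.3 and 78.4 in EXOSC10 KO (log2 0.49 ± 0.07). In S4+S5 it stood at 36.5 and 34.3 CPM in DIS3 WT and 253.4 and 246.1 in DIS3 KO, a log2 of 2.82 ± 0.15. EXOSC10 samples stood at 40.9 and 42.3 CPM (WT) and 108.6 and 136.9 (KO), a log2 of 1.57 ± 0.14. The difference between the lines in a sorted fraction was not tested, because both contrasts chose the gene.

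**Figure D2:**
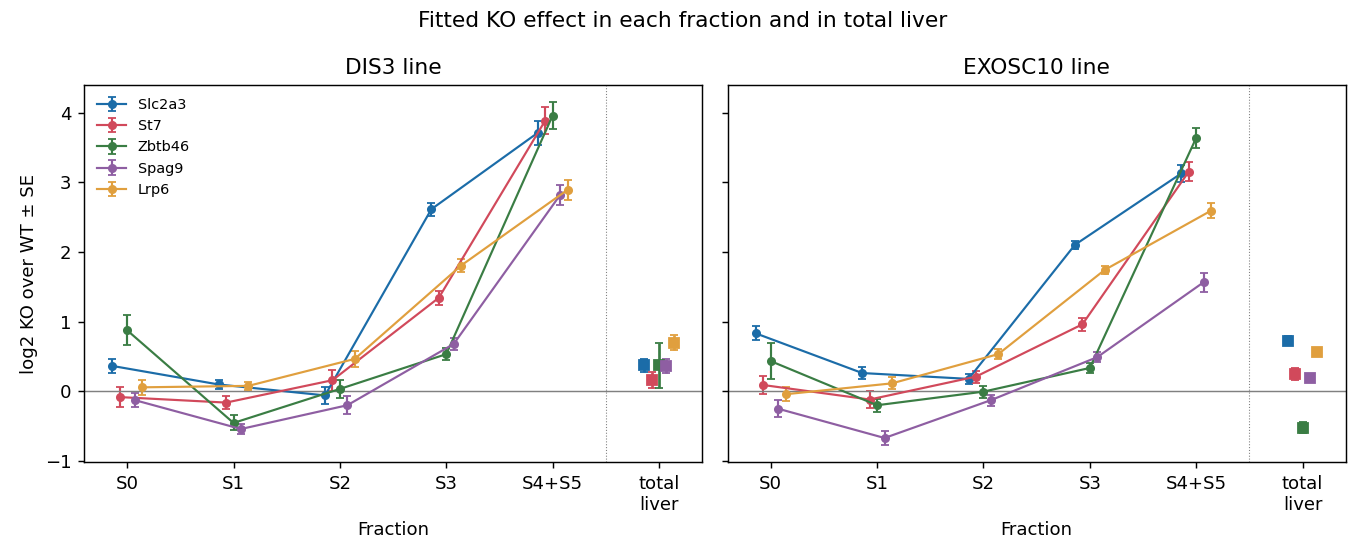
Fitted log2 KO over WT with SE for each gene in the 5 sorted fractions (circles joined by lines) and in total liver (squares), DIS3 line left and EXOSC10 line right. All 5 genes lie between 1.57 and 3.96 in S4+S5, and the values in total liver lie between -0.52 and 0.73.

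The description as unchanged in S0 to S2 held for St7 in both lines, where its log2 lay between -0.16 and 0.21, and only in part for the other genes. Spag9 was lower in KO in S1: 54.0 and 58.8 CPM in DIS3 WT against 37.4 and 39.7 in KO (log2 -0.54 ± 0.08), and 52.2 and 49.4 in EXOSC10 WT against 31.0 and 32.5 in KO (log2 -0.67 ± 0.10). Every KO sample was below every WT sample there, which was also so for 34.9% of the genes tested in DIS3 S1 and 33.7% in EXOSC10 S1. Spag9 was therefore lower in KO in S1 and higher in KO in S3 and S4+S5 in both lines. Its log2 in S0 and S2 lay between -0.25 and -0.13.

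Lrp6 was already higher in S2, at 110.4 and 118.4 CPM in DIS3 WT against 158.2 and 157.7 in KO (log2 0.47 ± 0.12), and at 105.6 and 116.4 in EXOSC10 WT against 162.8 and 159.6 in KO (log2 0.54 ± 0.07). Slc2a3 was higher in S0 of the EXOSC10 line, at 86.5 and 83.5 CPM in WT against 150.3 and 152.0 in KO (log2 0.83 ± 0.10). In S0 of the DIS3 line its log2 was 0.37 ± 0.10. In both lines, KO samples exceeded WT samples without overlap in S0 and S1 for Slc2a3 and in S1 and S2 for Lrp6. Such separation was seen in 34.4% of genes in DIS3 S0, 35.1% in DIS3 S1, 30.0% in DIS3 S2, 29.7% in EXOSC10 S0, 32.4% in EXOSC10 S1 and 31.5% in EXOSC10 S2.

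Zbtb46 in S0 had a DIS3 log2 of 0.88 ± 0.22 from low levels, 6.48 and 5.88 CPM in WT against 10.4 and 12.5 in KO. In the EXOSC10 line its S0 samples overlapped, at 8.81 and 13.5 CPM (WT) and 18.3 and 12.85 (KO) (log2 0.43 ± 0.26). In S1 it was lower in KO without overlap in both lines, with log2 values of -0.45 ± 0.11 and -0.20 ± 0.09. Its S2 values were 0.04 ± 0.13 in the DIS3 line and -0.004 ± 0.08 in the EXOSC10 line. The remaining early log2 values, those of Slc2a3 in S1 and S2 and of Lrp6 in S0 and S1, lay between -0.06 and 0.26. When libraries were scaled by total count instead, the sign turned for St7 and Spag9 in DIS3 S0, St7 and Zbtb46 in DIS3 S2, and Slc2a3 and St7 in EXOSC10 S2, so the direction of these small values depends on the scaling.

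Markers of other cells also differed in the early fractions, and their part in the values above was not tested. Levels are summed over the markers of a list that passed the filter. In S0, where Slc2a3 was higher in KO, 11 of 12 granulocyte markers fell in the DIS3 line (3080 to 3533 CPM in WT, 545.6 to 696.6 in KO), whereas 8 of 12 rose and 1 fell in the EXOSC10 line (773.3 to 1014 in WT, 1276 to 2352 in KO). Lymphoid markers fell in S0 for 11 of 11 and 10 of 11 genes, with 240 to 289.1 CPM in WT against 36.2 to 38.3 in KO for DIS3 and 243.7 to 272.1 against 22.8 to 33.6 for EXOSC10. Hepatocyte markers in EXOSC10 S0 summed to 28.0 to 38.2 CPM in WT, and the KO samples lay far apart, at 71.5 and 1054. They rose for 7 of 9 measured genes there and for 3 of 8 in DIS3 S0.

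In S1, where Spag9 and Zbtb46 were lower in KO, all 11 measured granulocyte markers fell in both lines, with 300.6 to 945.7 CPM in DIS3 WT against 5.93 to 39.9 in KO and 293.2 to 655 in EXOSC10 WT against 7.50 to 26.9 in KO. Progenitor markers fell there for 5 of 7 genes in each line, with 601.4 to 614.8 CPM in DIS3 WT against 308.1 to 317.5 in KO. In S2, where Lrp6 was higher in KO, hepatocyte markers rose for 7 of 9 genes in the EXOSC10 line (13.6 to 15.9 CPM in WT, 125.8 to 130.6 in KO), while the 3 measured in the DIS3 line summed to 7.09 to 7.34 in WT and 7.55 to 11.45 in KO. Of 10 measured macrophage markers in S2, 8 fell in DIS3 KO and 9 in EXOSC10 KO. Late erythroid markers rose more often than they fell. In the DIS3 line 7 of 12 rose and 1 fell in S0 and in S1, and 3 of 13 rose and 0 fell in S2. In the EXOSC10 line 4 of 12 rose in S0, 6 of 12 in S1 and 6 of 12 in S2, with 1 lower in each. Of the calls over all genes, 58% were higher in DIS3 S0, 51.5% in DIS3 S1 and 68.2% in DIS3 S2. With libraries scaled by total count, these shares were 82.8%, 52.4% and 61.9%. The EXOSC10 shares were 65.6%, 49.6% and 54%, or 85.5%, 33.2% and 23.9% by total count. Slc4a1 rose by log2 values of 2.46 and 2.17 in S0 and 1.48 and 1.45 in S1. These fractions thus differed between KO and WT in erythroid markers and in markers of several other cell types, not always in the same direction in both lines.

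Written as numbers, with a log2 of at most 0.5 in size in S0, S1 and S2 and at least 1 in S3 or S4+S5, the pattern was met by 483 of 11327 genes (4.26%) in the DIS3 line and by 333 of 11553 (2.88%) in the EXOSC10 line. The mirror pattern, near 0 early and at most -1 in S3 or S4+S5, was met by 628 genes in the DIS3 line and 314 in the EXOSC10 line. Slc2a3, St7 and Lrp6 met the pattern of a late rise in the DIS3 line, and St7 and Zbtb46 met it in the EXOSC10 line. The late rise was met in both lines by 101 of 10908 genes (0.926%). These were 20.9% of the DIS3 genes and 30.3% of the EXOSC10 genes that met it, and St7 was the only one of the 5 among them. Lrp6 in EXOSC10 S2 at 0.54 and Spag9 in DIS3 S1 at -0.54 lay just outside the limit, and Lrp6 in DIS3 S2 at 0.47 and Zbtb46 in DIS3 S1 at -0.45 just inside it.

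Total liver was tested, since the genes were not chosen on it. In the DIS3 line 3 of the 5 genes rose, where 26.5% of 17553 genes were called higher, 24.2% lower and 50.7% in either direction. Of all DIS3 calls 52.4% were higher, or 62.6% with libraries scaled by total count. In the EXOSC10 line 4 rose and 1 fell, where 31.4% of 16771 genes were called higher, 31.0% lower and 62.4% in either direction. Lrp6 and Slc2a3 rose in both lines. KO samples lay above WT samples without overlap for 4 of 5 genes in each line, where 31.2% of genes did so in the DIS3 line and 33.4% in the EXOSC10 line.

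Lrp6 had 122.4, 132.1, 131.4 and 126.2 CPM in DIS3 WT and 234.0 and 182.0 in KO, a log2 of 0.70 ± 0.10 (adjusted p = 5.49e-05). For EXOSC10 the samples stood at 141.6, 143.9 and 136.2 CPM (WT) and 200.6, 208.3 and 214.3 (KO), a log2 of 0.56 ± 0.06 (adjusted p = 5.92e-06). All KO samples were above all WT samples in both lines, and the 2 DIS3 KO samples lay further apart than the samples of any other of these groups.

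Slc2a3 had 71.6, 67.1, 65.9 and 60.6 CPM in DIS3 WT and 90.7 and 82.1 in KO, a log2 of 0.38 ± 0.10 (adjusted p = 0.00422). The EXOSC10 samples were at 85.9, 78.8 and 81.1 CPM (WT) and 130.9, 135.0 and 141.3 (KO), a log2 of 0.73 ± 0.06 (adjusted p = 8.1e-07). The groups did not overlap in either line.

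Spag9 had 60.3, 62.2, 67.0 and 62.1 CPM in DIS3 WT and 89.9 and 72.0 in KO, a log2 of 0.36 ± 0.10 (adjusted p = 0.00845). Without the KO sample of replicates 1 and 3, its log2 was 0.18 with an adjusted p of 0.19. EXOSC10 samples stood at 80.9, 84.5 and 82.9 CPM (WT) and 90.1, 94.0 and 99.1 (KO), a log2 of 0.19 ± 0.06 (adjusted p = 0.014), and this call was lost when WT replicate 1 (adjusted p = 0.0686) or the sum of WT replicates 3 and 4 (0.053) was left out. In both lines the call for Spag9 in total liver thus depended on single samples.

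St7 had 17.9, 17.5, 19.6 and 18.2 CPM in DIS3 WT and 19.7 and 21.4 in KO, a log2 of 0.16 ± 0.12 (adjusted p = 0.253). For EXOSC10 the samples stood at 28.0, 23.8 and 22.4 CPM (WT) and 28.5, 30.6 and 28.7 (KO), a log2 of 0.26 ± 0.09 (adjusted p = 0.0205). St7 was no longer called when WT replicate 2 was left out (adjusted p = 0.0678), without the sum of WT replicates 3 and 4 (0.128) and without the sum of KO replicates 2 and 4 (0.0562).

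Zbtb46 differed from the others in total liver. In the EXOSC10 line it fell, from 41.9, 39.5 and 41.3 CPM in WT to 28.5, 31.0 and 25.6 in KO, a log2 of -0.52 ± 0.08 (adjusted p = 7.03e-05). In the DIS3 line the WT samples lay apart, at 24.9, 7.22, 9.64 and 23.3 CPM, with both KO samples, 21.1 and 19.9, inside their range, a log2 of 0.37 ± 0.32 (adjusted p = 0.355). Without WT replicate 1 the DIS3 log2 was 0.78 with an adjusted p of 0.0305. Zbtb46 was thus lower in whole EXOSC10 KO liver while higher in the S3 and S4+S5 cells sorted from that line.

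The KO effect in total liver was compared between the lines by an interaction term. Written as the EXOSC10 effect minus the DIS3 effect, the log2 differences were 0.35 for Slc2a3 (adjusted p = 0.163), 0.09 for St7 (0.842), -0.91 for Zbtb46 (0.277), -0.18 for Spag9 (0.563) and -0.15 for Lrp6 (0.674). By edgeR 0 of the 5 were called, where 1.02% of 18158 genes were; 2 had an unadjusted p under 0.05, and DESeq2 called 1, Slc2a3. The Zbtb46 difference had an SE of 0.37, and without DIS3 WT replicate 1 it was -1.39 with an adjusted p of 0.0384.

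**Figure D3:**
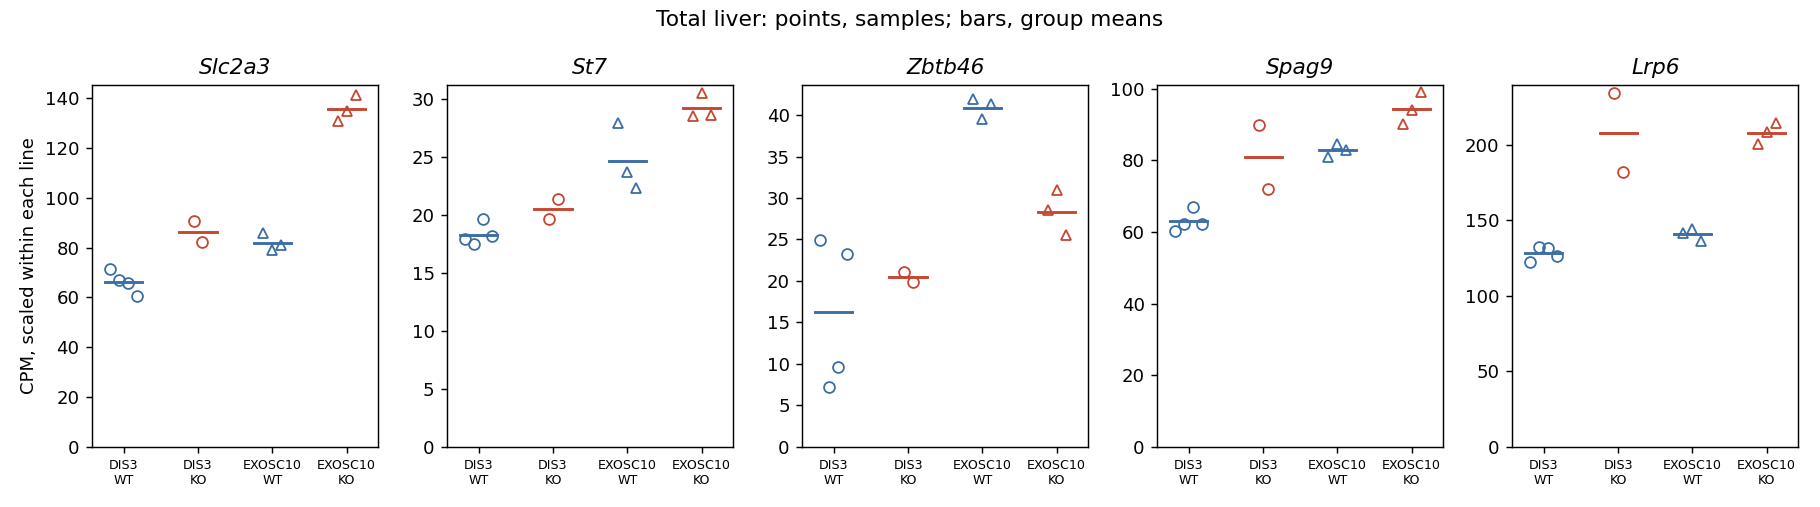
Total liver CPM, scaled within each line, of each gene: points are samples, bars group means, with blue WT and red KO. Lrp6 and Slc2a3 KO samples lie above all WT samples in both lines, Zbtb46 KO samples lie below WT in the EXOSC10 line, and the 4 DIS3 WT samples of Zbtb46 fall between 7.22 and 24.9.

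Markers of other cells moved with the total liver results, and their part in those results was not tested. All 13 late erythroid markers fell in both lines, with summed levels of 18720 to 21800 CPM in DIS3 WT against 8952 to 11450 in KO, and of 13930 to 15350 in EXOSC10 WT against 5889 to 7693 in KO. All 10 hepatocyte markers rose in both lines, with summed levels of 52200 to 59030 CPM in DIS3 WT against 115800 to 120800 in KO, and of 35430 to 44850 in EXOSC10 WT against 62660 to 84690 in KO. Endothelial markers rose for 9 of 12 genes in DIS3 KO and 10 of 12 in EXOSC10 KO, with none lower.

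In S3, 1 of 13 late erythroid markers fell in the DIS3 line, and 1 rose and 2 fell in the EXOSC10 line. Summed endothelial markers lay between 13.7 and 17.9 CPM in all 8 S3 samples, and summed macrophage markers between 18.1 and 19.4 CPM in DIS3 WT and between 3.75 and 4.54 in KO. Of 9 measured macrophage markers 8 fell there, and no dendritic cell marker passed the filter. Megakaryocyte markers summed to 80.6 to 99.0 CPM in DIS3 WT and 153.4 to 172.3 in KO, and to 77.7 to 81.4 in EXOSC10 WT and 114.5 to 116.3 in KO.

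Stellate and mesenchymal markers were higher in KO in S3 through Reln and Col1a2. Their summed level was 68.0 to 84.4 CPM in DIS3 WT and 469.9 to 518.7 in KO, and 91.7 to 94.2 in EXOSC10 WT and 536.9 to 542.8 in KO. Reln, which encodes the secreted protein reelin, held most of it, with means of 75.9 and 492.1 CPM in DIS3 WT and KO. The 5 genes were not tested in S1 and S2, where their log2 lay between -0.67 and 0.54. Reln was called higher in S1 (log2 1.92 in the DIS3 line and 2.17 in the EXOSC10 line) and in S2 (2.85 and 3.93). Its mean in DIS3 WT was 0.794 CPM in S0, 3.38 in S2 and 206.7 in S4+S5, so it was not read as a count of stellate cells. Of the other 8 markers, 7 did not pass the filter in DIS3 S3 and Col1a2 reached 2.16 CPM in KO. In S4+S5, late erythroid markers summed to 69540 to 73450 CPM in DIS3 WT and 55430 to 55580 in KO, and to 60950 to 63490 in EXOSC10 WT and 38830 to 43120 in KO. All 11 measured macrophage markers fell in DIS3 KO and 10 of 11 in EXOSC10 KO, with summed levels of 253.4 to 346.8 CPM in DIS3 WT and 21.8 to 39.4 in KO, and of 246.4 to 264.9 in EXOSC10 WT and 33.6 to 59.3 in KO. Stellate and mesenchymal markers there summed to 203.2 to 216.7 CPM in DIS3 WT and 618.5 to 664.3 in KO, and to 263.2 to 286.7 in EXOSC10 WT and 864.7 to 887.4 in KO, with Reln called higher and Pdgfrb lower in both lines. Megakaryocyte markers summed to 144.2 to 232.9 CPM in DIS3 WT and 239.9 to 260.1 in KO, where 4 of 10 rose and 3 fell, and to 143.3 to 149.3 in EXOSC10 WT and 226.8 to 252.2 in KO, where 3 of 12 rose and none fell. Lymphoid markers fell for 6 of 8 genes in DIS3 KO and 7 of 9 in EXOSC10 KO. Progenitor markers fell for 6 of 9 genes in DIS3 KO (210.1 to 212.4 CPM in WT, 43.6 to 70.9 in KO). In EXOSC10 KO 4 of 9 fell (174.1 to 192.2 in WT, 99.9 to 103.8 in KO). Granulocyte markers fell for 7 of 11 genes in DIS3 KO (269.3 to 374.6 CPM in WT, 68.8 to 85.0 in KO). In EXOSC10 KO 3 of 12 rose and 2 fell (402.7 to 435.8 in WT, 369.8 to 469 in KO). Whether these markers take part in the 5 genes' values was not tested.

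Annotated genes inside the 5 genes were read beside them. St7 introns hold Gm43844 and Gm43533 on the same strand, both listed as unverified transcripts, with counts over all libraries of 21.1% and 20.4% of those of St7. Mean Gm43844 stood higher where St7 did: it went from 3.48 to 11.4 CPM in DIS3 S3 (log2 1.70 ± 0.18) and from 1.13 to 25.9 in DIS3 S4+S5 (4.46 ± 0.33), with 1.32 ± 0.16 and 3.64 ± 0.21 in the EXOSC10 line. Gm43533 had smaller values, 0.25 ± 0.20 and 1.48 ± 0.43 in the same DIS3 fractions and 0.01 ± 0.16 and 1.21 ± 0.77 in the EXOSC10 ones. The intronic genes therefore differed from each other in S3, where Gm43844 was higher in KO and Gm43533 was near WT.

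A Spag9 intron holds the pseudogene Gm11518 on the opposite strand, with 38.6% as many counts as Spag9. Its log2 was 0.21 ± 0.10 in DIS3 S3 and 0.50 ± 0.24 in DIS3 S4+S5, where Spag9 had 0.68 and 2.82. The Slc2a3 span holds the pseudogene Gm4482, with 2.18% of the counts of Slc2a3, and no gene overlaps Lrp6. Whether the counting used strand is not given in the sources used here, and the exons of Spag9 and Gm11518 do not overlap. Whether intron reads of Spag9 or St7 were counted in the genes inside them was not tested.

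**Figure D4:**
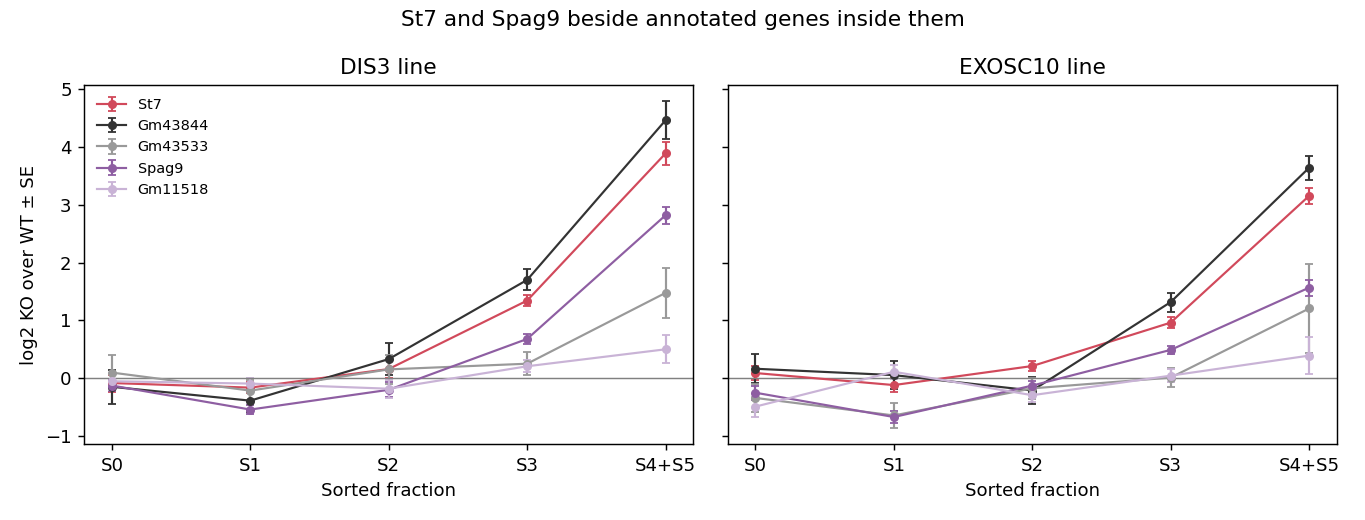
Fitted log2 KO over WT with SE in the sorted fractions for St7 and Spag9 and for annotated genes inside them (Gm43844 and Gm43533 in St7 introns, Gm11518 in a Spag9 intron). Gm43844 lies at 4.46 and 3.64 in S4+S5, near St7, whereas Gm11518 stays at or below 0.50, far from Spag9.

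The other glucose transporters were read from a list of 10 beside Slc2a3. In S3, 4 were measured, and in both lines Slc2a1 rose, Slc2a4 fell and the rest were not called, where 16.3% and 16.8% of all genes were called higher in the DIS3 and EXOSC10 lines and 15.9% and 17.2% lower. Of the EXOSC10 S3 calls 49.4% were higher, or 34.4% with libraries scaled by total count. Slc2a1, which encodes GLUT1, the main glucose transporter of human red cells, went from a mean of 1860 to 3081 CPM in DIS3 S3 (log2 0.73, adjusted p = 0.000463) and from 1621 to 2382 in EXOSC10 S3 (0.56, adjusted p = 3.75e-05). Slc2a4, the insulin-responsive GLUT4, went from 126 to 66.5 CPM (log2 -0.92, adjusted p = 3.9e-06) and from 131.5 to 75.7 (-0.80, adjusted p = 7.77e-07).

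In S4+S5, Slc2a1 rose in the DIS3 line (log2 0.49, adjusted p = 0.00487) and was the only transporter of 5 measured that was called. In the EXOSC10 line 0 of 5 were called by edgeR or DESeq2, and 1 had an unadjusted p under 0.05. Of all genes in S4+S5, 23.4% were called higher and 23.7% lower in the DIS3 line, and 7.63% and 7.52% in the EXOSC10 line. In the EXOSC10 line 50.4% of the calls were higher, or 38.9% with libraries scaled by total count. The number of EXOSC10 S4+S5 calls, 2144, was 1290 without WT replicate 1, 1277 without the sum of WT replicates 2 and 3, 7704 without KO replicate 1 and 7872 without the sum of KO replicates 2 and 3, so list counts there depend on single samples. In total liver 4 of the other transporters rose and 2 fell in each line, with 9 measured for DIS3 and 8 for EXOSC10. Slc2a2, the hepatocyte transporter GLUT2, rose there by log2 values of 1.21 and 1.11, Slc2a9, a urate transporter, by 0.81 and 1.14, and Slc2a4 fell by 1.78 and 1.84.

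Glycolytic and lactate genes had a median log2 of 0.46 in DIS3 S3 and 0.36 in EXOSC10 S3, beside 0.01 for all genes in each: 12 of 20 measured genes rose and 3 fell in the DIS3 line, and 11 rose and 5 fell in the EXOSC10 line. In S4+S5, 4 of 21 rose and 8 fell in the DIS3 line, and 3 rose and 4 fell in the EXOSC10 line. In total liver, 9 rose and 7 fell of 21 in the DIS3 line, and 2 rose and 9 fell in the EXOSC10 line. Of the genes named there, Ldhb, a lactate dehydrogenase subunit, rose by log2 values of 0.94 and 1.10, the myeloid hexokinase Hk3 fell by 1.14 and 0.80, and the aldolase Aldoc rose by 1.31 in the DIS3 line and had 0.30 with an adjusted p of 0.06 in the EXOSC10 line.

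Among 29 Wnt receptors and their regulators other than Lrp6, 10 were measured in DIS3 S3, of which 2 rose and 2 fell, and 11 in EXOSC10 S3, of which 2 rose and 1 fell. Both that rose were the same in the lines: the Wnt receptor gene Fzd5, from 172.7 to 220.5 CPM (log2 0.35) and from 178.3 to 227.2 (0.35), and the R-spondin receptor gene Lgr4, from 17.1 to 25.3 (0.56) and from 14.8 to 24.5 (0.75). Lrp5, the gene of the other Wnt co-receptor, went against Lrp6 in S4+S5 but not in total liver. It fell in S4+S5 from 47.2 to 5.11 CPM in the DIS3 line (log2 -3.20, adjusted p = 7.37e-10) and from 33.4 to 10.9 in the EXOSC10 line (-1.59, adjusted p = 0.00555). In total liver it rose, as Lrp6 did, from 133.2 to 195.3 CPM in the DIS3 line (log2 0.55, adjusted p = 9.88e-05) and from 124.6 to 226.9 in the EXOSC10 line (0.86, adjusted p = 6.16e-07).

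In S4+S5 the list had 4 genes up and 6 down of 12 in the DIS3 line, and 2 up and 1 down of 14 in the EXOSC10 line. Lgr4 rose in both, by log2 values of 1.87 and 1.68. In total liver, 14 of 25 rose and 0 fell in the DIS3 line (median log2 0.51 beside 0.03 for all genes), and 17 of 24 rose and 1 fell in the EXOSC10 line (0.77 beside 0.00). The stem cell receptor gene Lgr5 rose there by 0.86 and 1.43 and the receptor kinase gene Ror1 by 1.08 in each line. Dkk1, an inhibitor that binds LRP6, rose by 1.12 in the EXOSC10 line and had 0.69 with an adjusted p of 0.139 in the DIS3 line. Levels of Ror1 and Dkk1 were low. Mean Ror1 went from 0.80 CPM in WT to 1.90 in KO in the DIS3 line and from 0.95 to 2.05 in the EXOSC10 line. Mean Dkk1 went from 0.64 to 1.42 in the EXOSC10 line.

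Of beta-catenin target genes in DIS3 S3, 0 of 4 measured were called by edgeR or DESeq2, and 0 had an unadjusted p under 0.05. In EXOSC10 S3 1 of 4 was called, Myc, at means of 15.2 CPM in WT and 24.3 in KO (log2 0.67, adjusted p = 0.00029). In DIS3 S4+S5 Rnf43 rose and Myc fell (log2 1.31 and -1.47), with 3 of 5 not called, and in EXOSC10 S4+S5 0 of 7 were called by edgeR or DESeq2, with 4 at an unadjusted p under 0.05. In total liver 5 of 10 rose and 1 fell in the DIS3 line, and 7 rose and 2 fell in the EXOSC10 line, among them Znrf3, a ligase that removes Wnt receptors, which rose by 0.66 and 0.85. Notum, a secreted Wnt inhibitor, rose by 1.67 in the EXOSC10 line from low levels, with means of 0.45 CPM in WT and 1.55 in KO. In the DIS3 line it had 0.82 with an adjusted p of 0.094.

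Of 16 beta-catenin signalling genes, 13 were measured in S3 of each line: 1 rose and 5 fell in the DIS3 line, and 1 rose and 3 fell in the EXOSC10 line. The one that rose was Csnk1g1, a casein kinase 1 gene whose family phosphorylates LRP6, from 36.9 to 58.8 CPM (log2 0.66) and from 35.4 to 49.2 (0.48). Ctnnb1, the beta-catenin gene, fell by 0.24 and 0.23, and the transcription factor gene Tcf7l2 by 0.41 and 0.79. In S4+S5, 3 rose and 2 fell in each line, of 13 and 15 measured. The 3 were Csnk1g1 and the Dishevelled genes Dvl2 and Dvl3, with Dvl2 at log2 values of 1.07 and 2.35. In total liver 4 rose and 6 fell of 16 in the DIS3 line and 8 rose and 6 fell in the EXOSC10 line. Named there, Apc, a scaffold of the beta-catenin destruction complex, rose by 0.72 and 0.51, Tcf7l1 by 0.73 and 0.84, and Tcf7 by 0.65 in the EXOSC10 line with 0.43 and an adjusted p of 0.0524 in the DIS3 line.

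JNK scaffolds and kinases other than Spag9 were mixed. In DIS3 S3, 3 of 16 measured rose and 7 fell, and in EXOSC10 S3 3 rose and 3 fell. The scaffold gene Sh3rf1 and the JNK target genes Jun and Jund were those that rose in both lines, with Jun at log2 values of 2.14 and 2.34 from means of 3.27 and 6.94 CPM in WT. Mapk8ip3, which encodes JIP3 and is closely related to JIP4, fell from 203.7 to 168.6 CPM in DIS3 S3 (log2 -0.27, adjusted p = 0.0266). In S4+S5, 2 of 17 rose and 5 fell in the DIS3 line, and 1 rose and 1 fell in the EXOSC10 line. In total liver 6 of 17 rose and 5 fell in the DIS3 line, and 7 rose and 5 fell in the EXOSC10 line. The upstream kinase genes Map3k12 and Map3k13 rose by 1.15 and 1.07 and by 1.01 and 1.10, and the scaffold gene Mapk8ip1 by 1.10 and 0.99.

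BTB zinc finger genes other than Zbtb46 moved in both directions. In S3, 3 of 20 rose and 7 fell in the DIS3 line, and 3 of 18 rose and 4 fell in the EXOSC10 line. In S4+S5, 3 of 21 rose and 7 fell in the DIS3 line, and 1 rose and 3 fell in the EXOSC10 line. Hic2 was among those that rose in all 4: from 6.71 to 24.9 CPM in DIS3 S3 (log2 1.89), from 6.41 to 15.8 in EXOSC10 S3 (1.31), from 5.61 to 46.4 in DIS3 S4+S5 (3.06) and from 4.99 to 14.5 in EXOSC10 S4+S5 (1.54). HIC2 is a transcriptional repressor of the same BTB zinc finger family.

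Zbtb7a, which encodes the erythroid factor LRF, fell from 475.4 to 347.1 CPM in DIS3 S3 (log2 -0.45) and from 427.7 to 309.0 in EXOSC10 S3 (-0.47). In S4+S5 it was not called, with 0.14 and -0.02. In total liver 6 of 22 BTB genes rose and 6 fell in the DIS3 line, and 8 of 21 rose and 5 fell in the EXOSC10 line. Zbtb7a fell there by 1.13 and 0.94, Zbtb16, the PLZF gene, fell by 1.54 and 1.48, and Zbtb20 rose by 0.88 and 0.64.

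St7 was set beside its relative St7l and its chromosome neighbours. In S3, 0 of the 3 measured genes of that list were called by edgeR or DESeq2 in either line, with 0 at an unadjusted p under 0.05 in the DIS3 line and 3 in the EXOSC10 line. In S4+S5, St7l was the 1 of 5 that rose in the DIS3 line, from 12.8 to 20.02 CPM (log2 0.65, adjusted p = 0.0222), while Capza2, Met, Cav2 and Tes fell. Capza2 alone was called in the EXOSC10 line there, lower (log2 -0.60, adjusted p = 0.0209). No neighbour of St7 on the chromosome was called higher in these fractions. In total liver 4 of 7 rose and 1 fell in the DIS3 line and 2 rose and 2 fell in the EXOSC10 line: the HGF receptor gene Met rose by 1.05 and 0.98, Tes fell by 0.79 and 0.42, and Wnt2 rose by 0.81 in the DIS3 line with 0.40 and an adjusted p of 0.141 in the EXOSC10 line.

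The genes most like each of the 5 over the 20 sorted groups were found by Pearson r on log2 of mean CPM plus 1 among 13353 genes, as a description in which all groups share libraries and the KO pattern that chose the 5 genes. Among the genes most like Slc2a3 were the peroxiredoxin gene Prdx1 (r = 0.951) and the tubulin gene Tubb3 (0.938). Among those most like St7 were Gm43844 inside it (0.983) and Lrp6 (0.914).

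Zbtb46 was most like the chloride channel gene Clcn2 (0.952), Cnnm2 (0.945) and Fgfrl1 (0.939). Spag9 was most like the phosphatase subunit gene Ppp1r12c (0.921), the nuclear receptor cofactor gene Lcor (0.917) and the phosphatase subunit gene Ppp6r1 (0.909). Lrp6 was most like Spry1 (0.918), an inhibitor of receptor kinase signalling, 2410004B18Rik (0.914) and St7 (0.914). Among the 5 themselves, r ran from 0.254 between Zbtb46 and Spag9 to 0.914 between St7 and Lrp6.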

How the data were processed

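The data are 76 deposited files of raw counts per Ensembl gene, 1 per library, which the authors made with HISAT2 2.1.0 and featureCounts 1.6.4 (Subread) on GRCm38, per the submitters' processing notes, which also name R 3.5.1 and DESeq2 1.20.0. The annotation release and strand setting are not given in the sources used here. Symbols come from GENCODE M21, which holds 49326 of the 49585 identifiers.

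Libraries of a group whose counts differed by a chi-square under 1.5 per degree of freedom (genes with at least 20 counts over both, without Gm26917 and Gm42418) were summed: 24 of 84 pairs, between 1.0765 and 1.3271, where the other pairs lay between 2.7976 and 20.2925. Sorted groups then had 2 samples, DIS3 total liver 4 WT and 2 KO, and EXOSC10 total liver 3 of each. KO was compared with WT within a line and population with edgeR 4.0.16 (R 4.3.3): TMM scaling, filterByExpr, the quasi-likelihood test, Benjamini-Hochberg adjustment over all genes tested, calls at an adjusted p under 0.05, no replicate block. SE is the log2 divided by the square root of F. The fit was tested on simulated data.

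The 5 genes, the lists and the tests were chosen with earlier results of these data known. Genes named from total liver are up to 3 per list called in either line with the largest log2, at a mean CPM of at least 1. For each of the 5 genes, the 3 most like it have the highest Pearson r, at a mean CPM of at least 1; some of these are not reported here. Genes named in sorted fractions were chosen after their values were seen. Counts per list leave out the 5 genes. Alternatives were RLE or total-count scaling, no filter, DESeq2 1.42.0, every library as its own sample, Gm26917 and Gm42418 left out, a replicate block, a single fit per line, and each sample left out.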

Additional observations from a re-analysis of the deposited data

Results flagged for a closer look

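Opposite directions without overlap of samples, other than the late against early differences that chose the genes, were seen for 3 genes, and none of these differences was tested. For St7 in the DIS3 line, every KO sample was below WT in S1 and above WT in total liver and in S2, with log2 effects apart by 0.323 and 0.321. For Zbtb46, KO was above WT in S0 and below it in S1 of the DIS3 line, 1.329 apart. In the EXOSC10 line Zbtb46 KO was below WT in total liver and above it in S3 and S4+S5, 0.858 and 4.158 apart.

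For Spag9, KO was above WT in total liver and below it in early fractions. The effects were apart by 0.903 for DIS3 S1 and 0.562 for DIS3 S2. They were apart by 0.437 for EXOSC10 S0, 0.857 for EXOSC10 S1 and 0.314 for EXOSC10 S2. With 2 samples a group, many genes separate in each comparison, in the shares given above.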

How the results depend on the processing

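Of 230 alternative values for the 15 total liver results of the 5 genes, 211 kept their direction and side of the threshold, 10 lost the call, 8 gained it and 1 reversed. Without a filter, Zbtb46 in DIS3 total liver was 0.38 (adjusted p = 0.0197, edgeR), Spag9 in EXOSC10 total liver 0.17 (0.0535) and the Zbtb46 line difference -0.95 (4.08e-07). A single fit of the DIS3 line gave St7 0.32 (0.021). Total-count scaling gave St7 0.20 (0.0707) and Spag9 0.14 (0.134) in EXOSC10 total liver, and DESeq2 gave St7 0.24 (0.0616). The Slc2a3 line difference was 0.36 (0.0186) with every library as its own sample and 0.38 (0.043) by DESeq2. Leaving out 1 sample gave 0.13 to 0.78 for Zbtb46 and 0.18 to 0.51 for Spag9 in DIS3 total liver, 0.18 to 0.34 for St7 and 0.16 to 0.22 for Spag9 in EXOSC10 total liver, and line differences of -1.39 to -0.68 for Zbtb46 and -0.33 to 0.05 for Lrp6, which reversed, to 0.053, without the sum of DIS3 KO replicates 1 and 3. The cause of these changes was not tested.

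Deviations of same-numbered WT and KO samples from their group means correlated between -0.111 and 0.099. With 2 samples in each sorted group, this cannot exclude pairing or a batch shared by number. Replicate 1 had the highest share of Gm26917 and Gm42418 in every sorted EXOSC10 group. In S0 it had 49.9% in WT and 46.4% in KO, against 33.4% to 33.8% and 35.1% to 35.5% in the other replicates. In the DIS3 line the order varied between fractions. With a replicate block, DIS3 S2 calls went from 2118 to 3392, and the Slc2a3 line difference was 0.353 where libraries were also kept apart (adjusted p = 0.0375). The late log2 values of the 5 genes kept their sign in all 12 alternatives each. Of 600 values in sorted fractions 80 moved by over 1 SD. Gene counts moved by over 1.5 times in 41 of 138 cases: DIS3 S0 5155 (2555 to 7330), S1 5697 (3707 to 7032), S2 2118 (872 to 5898), S3 4192 (2650 to 5372), EXOSC10 S0 2122 (793 to 5636), S1 4204 (1522 to 5679), S2 2810 (1647 to 4596), S3 4352 (2656 to 5515), S4+S5 2144 (820 to 7872), and the line difference 185 (85 to 992). Of 2368 alternative counts of called genes in the pathway lists, 517 moved by over 1.5 times. In DIS3 S3 the lowest count on leaving out a sample, 2742, was without the sum of KO replicates 1 and 3. Total-count scaling moved the median log2 of all genes to 0.134 in DIS3 total liver, 0.252 in DIS3 S0, -0.328 in DIS3 S2, -0.234 in EXOSC10 S2 and -0.226 in EXOSC10 S4+S5.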
